A study of Mus musculus with 12 samples.

Results

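Bone morphogenetic proteins (BMPs) and the proteins that restrain them were followed in cultured mouse colon fibroblasts through 9 genes chosen by symbol. The ligands were Bmp2, Bmp4 and Bmp5. The secreted antagonists were Grem1, Nog, Chrd and Fst. The remaining genes were Fstl1, which encodes a secreted follistatin-like glycoprotein, and Bambi, which encodes a membrane pseudoreceptor and so is not a secreted protein. The table of 23106 genes had a row for 8 of the 9, and Bmp5 was not analysed here. Of those 8 genes, 7 averaged at least 10 normalised reads over the 12 libraries and entered the test across 12676 genes, while Chrd fell under that level.

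BMPs are secreted dimers that bind type I and type II serine/threonine kinase receptors, which phosphorylate SMAD1, SMAD5 and SMAD9; these join SMAD4 and switch on target genes such as the Id genes. Gremlin, noggin and chordin bind the ligand outside the cell and keep it from its receptors, and follistatin does so mainly for activins and also for some BMPs. In the colon, BMP activity is high towards the crypt mouth, where it favours differentiation, and stromal cells below the crypt base secrete antagonists that keep it low around the stem cells.

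The libraries fell into 3 groups of 4, which the series describes as biological replicates. All came from colon fibroblasts of C57BL/6 mice aged 12 weeks, cultured with 10% fetal bovine serum and collected without treatment 24 h after plating. The groups were WT sgScr, Prkcz-/- sgScr, which lacks the atypical protein kinase C gene by its label, and Prkcz-/- sgSox2, which carries the same Prkcz label and a guide against the transcription factor gene Sox2 in place of sgScr. They are called WT-labelled, knockout-labelled and Sox2-guide libraries here. The sources used here do not say whether a group was 1 clone, a pool of edited cells, or cells of 1 or several animals, so the p-values measure the spread between these cultures. RNA was read as 3′ tags with the QuantSeq kit, in which a transcript gives a tag near its 3′ end whatever its length, so levels of different genes can be set side by side as tags. Values are reads scaled by the authors to 10000000 per library, called normalised reads.

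The libraries held 2668455 to 5201368 reads, so 1 read was worth 1.92 to 3.75 normalised reads. Prkcz went against its label. It had 0 reads in the WT-labelled libraries, against 32 in knockout-labelled and 54 in Sox2-guide libraries. The cause of this conflict with the label was not tested, and a 3′ tag outside a deletion would not check a genotype. Each direction below is therefore between libraries as labelled. Sox2 had 2 reads in the WT-labelled libraries, 1960 in the knockout-labelled libraries and 0 in the Sox2-guide libraries. Sox2-guide replicate 1 stood apart from its group, with a chi-square per degree of freedom of 29.5 to 33.3 against the other 3 where other replicate pairs gave 1.30 to 5.65. Its mitochondrial share was 4.29% of reads against a mean of 10.6% in the WT-labelled and 11.2% in the knockout-labelled libraries. Of 10 fibroblast markers, all had at least 1 read in each group except Lum in the Sox2-guide libraries. Their summed level was 56262 to 60187 normalised reads in WT-labelled, 138773 to 140418 in knockout-labelled and 61184 to 66837 in Sox2-guide libraries. The markers moved in both directions: Col1a1 averaged 5829, 57381 and 11494 in the 3 groups, and Dcn 1374, 55.3 and 31.5. Thy1 averaged 942, 146 and 0.481, the last from 1 read, and Lum had 8, 1 and 0 reads. The summed level of 8 smooth muscle markers was 2266 to 2397 normalised reads in WT-labelled, 26577 to 29314 in knockout-labelled and 1154 to 1838 in Sox2-guide libraries. Most of that sum was Acta2, at means of 1609, 25553 and 1340.0. Of 6 tested smooth muscle markers 4 were higher and 0 lower in the knockout-labelled than in the WT-labelled libraries. Of all tested genes 37.6% were higher and 29.4% lower there. Tagln averaged 592, 1966 and 85.4 in the 3 groups, and Lmod1 8.03, 654 and 1.11. Cnn1 and Actg2 did not pass between the WT-labelled and knockout-labelled libraries (limma adjusted p = 0.720 and 0.151). Myh11, which defines mature smooth muscle, had no read in the WT-labelled or Sox2-guide libraries and 9 reads in the knockout-labelled libraries. The part of this marker difference in the results below was not tested. In bulk RNA, fewer cells of a type and less RNA per cell cannot be told apart.

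The ligand genes moved in opposite directions across the groups. Bmp2, a ligand best known from bone and from the crypt mouth of the intestine, was highest in the WT-labelled libraries, and Bmp4, a ligand made by intestinal mesenchyme, was highest in the Sox2-guide libraries. In the WT-labelled libraries Bmp2 stood at 409, 379, 383 and 391 normalised reads. In the knockout-labelled libraries it stood at 165, 125, 159.6 and 181, and in the Sox2-guide libraries at 25.0, 44.5, 41.2 and 59.3. No library of one group reached the range of another. The mean fell from 391 ± 13.3 (SD, n = 4) to 158 ± 23.4, which is 2.48-fold lower, and then to 42.5 ± 14.1, which is 3.71-fold lower again. The log2 change was −1.31 ± 0.21 (SE; limma adjusted p = 3.9e-05) from WT-labelled to knockout-labelled libraries and −1.92 ± 0.21 (limma adjusted p = 7.9e-07) from there to the Sox2-guide libraries. From WT-labelled to Sox2-guide libraries Bmp2 differed by −3.23 ± 0.21 (limma adjusted p = 2.5e-09), a 9.19-fold lower mean.

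Bmp4 was counted at 250.01, 264, 296 and 256 normalised reads in the WT-labelled libraries. Knockout-labelled libraries held 417, 504, 463 and 427, and Sox2-guide libraries 638, 567, 536 and 516. The groups again did not overlap, although the highest knockout-labelled library lay only just under the lowest Sox2-guide library. The means were 267 ± 20.6, 453 ± 39.7 and 564 ± 53.6 (SD, n = 4) in that order of groups. Bmp4 rose by 0.76 ± 0.11 on the log2 scale (SE; limma adjusted p = 8.5e-06) between the WT-labelled and knockout-labelled libraries, 1.70-fold in the means. The further rise in the Sox2-guide libraries was 0.32 ± 0.11 (limma adjusted p = 0.0168), 1.25-fold in the means. That call was lost without knockout-labelled replicate 1, where the change was 0.28 with an adjusted p of 0.0537; over the 24 alternatives its adjusted p ran from 0.0124 to 0.0537. Against the WT-labelled libraries the Sox2-guide libraries were 1.08 ± 0.11 higher (limma adjusted p = 3.7e-07). Gm15222 and Gm15217 overlap Bmp4 (chromosome 14, 46383520 to 46390669, minus strand, GRCm38) on the other strand; Gm15222 reached at most 13.5 normalised reads in any library.

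**Figure D1:**
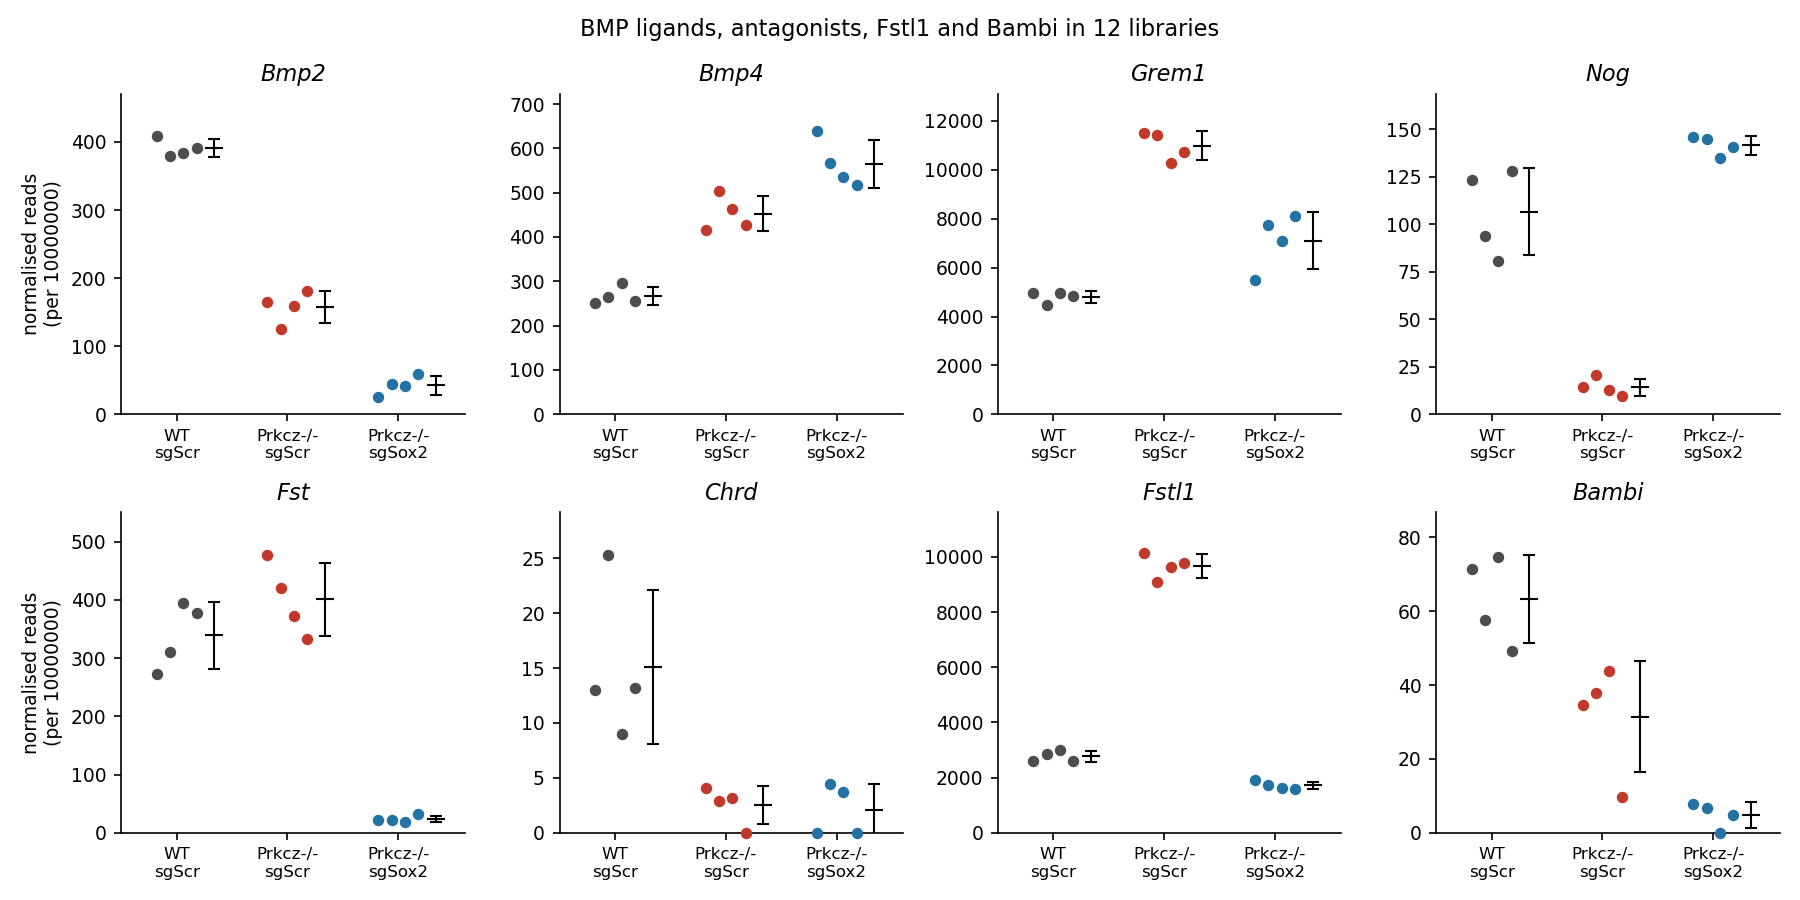
Normalised reads (per 10000000 reads of the library, linear axes from 0, each panel with its own scale) of the 8 analysed genes in the WT sgScr, Prkcz-/- sgScr and Prkcz-/- sgSox2 libraries. Points are libraries in replicate order, and the bars beside them are the mean and SD of 4, cut at 0 for Chrd. Bmp2 steps down and Bmp4 steps up from left to right, Nog lies between 9.71 and 20.4 in the Prkcz-/- sgScr libraries, and Fst between 18.7 and 32.1 in the Prkcz-/- sgSox2 libraries.

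Among the antagonists, Grem1 was by far the most abundant, Nog and Fst were each depressed in a different group, and Chrd was close to the detection limit. Grem1, or gremlin 1, binds BMP2 and BMP4 and is a product of the stroma around the crypt base. The letters of its promoter and of the Bmp4 promoter are shown because these are the antagonist and the ligand with the most reads in the knockout-labelled and Sox2-guide libraries. Both come from RefSeq (GRCm38.p6) and give the 250 bases before the start, read 5′ to 3′ on the gene's own strand, which is the minus strand for both. Grem1 is at chr2:113758649-113758898 and Bmp4 at chr14:46390670-46390919. Capitals mark matches on either strand to GGCGCC, the GC-rich element of BMP SMADs, to CAGAC, the SMAD element, and to CATTGT, a SOX element.
Grem1: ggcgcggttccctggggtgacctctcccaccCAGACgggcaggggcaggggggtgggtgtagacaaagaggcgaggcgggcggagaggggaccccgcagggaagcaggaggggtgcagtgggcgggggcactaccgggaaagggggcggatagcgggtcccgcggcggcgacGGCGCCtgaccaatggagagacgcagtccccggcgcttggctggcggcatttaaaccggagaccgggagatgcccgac
Bmp4: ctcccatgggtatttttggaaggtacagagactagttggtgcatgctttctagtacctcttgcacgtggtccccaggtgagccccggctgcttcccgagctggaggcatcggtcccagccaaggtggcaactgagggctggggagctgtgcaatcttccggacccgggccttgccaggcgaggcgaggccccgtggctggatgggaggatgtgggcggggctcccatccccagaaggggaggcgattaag
The Grem1 window was 72.0% G and C and held 1 GGCGCC, 78 bases before the start, and 1 CAGAC, 219 bases before it. The Bmp4 window was 63.2% G and C and held none of the 3 motifs. Of 32851 promoters of the same length, 9.59% held GGCGCC, 42.2% held CAGAC and 10.7% held CATTGT. Promoters were matched for 4 of the 8 analysed genes; in the other two, Chrd held 1 GGCGCC, 203 bases before the start, and Fstl1 none of the 3 motifs. A match describes letters and is not a bound site.

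Grem1 stood at 4948, 4456, 4977 and 4829.6 normalised reads in the WT-labelled libraries. It was at 11527, 11409.7, 10274 and 10727 in the knockout-labelled libraries and at 5479, 7725, 7094 and 8123 in the Sox2-guide libraries. Every knockout-labelled library was above every other library, and Sox2-guide replicate 1, the library that stood apart, lay nearest to the WT-labelled range without entering it. The mean was 4803 ± 239.8 (SD, n = 4), 10985 ± 591 and 7105 ± 1164 in the 3 groups. Grem1 rose 2.29-fold between the WT-labelled and knockout-labelled libraries (log2 change 1.19 ± 0.10, limma adjusted p = 3.3e-08). It was 1.55-fold lower in the Sox2-guide than in the knockout-labelled libraries (−0.64 ± 0.10, limma adjusted p = 4.9e-05) and 1.48-fold above the WT-labelled libraries (0.55 ± 0.10, limma adjusted p = 3.0e-04). Without Sox2-guide replicate 1 these last changes were −0.52 (adjusted p = 1.8e-06) and 0.67 (adjusted p = 2.0e-07). Over the 24 alternatives the adjusted p of the former ran from 6.3e-07 to 8.8e-04 and that of the latter from 2.0e-07 to 0.00572. Ranked by group mean among the 12676 tested genes, Grem1 was at place 251 in WT-labelled, 44 in knockout-labelled and 129 in Sox2-guide libraries.

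Nog, or noggin, a high-affinity antagonist of BMP2 and BMP4, was nearly lost in the knockout-labelled libraries and was present in the others. Its normalised reads were 123, 93.9, 80.8 and 128 in the WT-labelled libraries and 14.2, 20.4, 12.5 and 9.71 in the knockout-labelled libraries. The Sox2-guide libraries held 146, 145, 135 and 141. The knockout-labelled values rest on 21 reads in all, against 130 and 234 in the other groups. Nog was 7.50-fold lower in the knockout-labelled than in the WT-labelled libraries (means 14.2 ± 4.53 and 107 ± 22.9, SD, n = 4; log2 change −2.84 ± 0.24, limma adjusted p = 2.3e-08). In the Sox2-guide libraries it was 9.96-fold higher than in the knockout-labelled libraries (mean 142 ± 5.01; 3.27 ± 0.24, limma adjusted p = 6.0e-09). The Sox2-guide libraries all lay above the WT-labelled libraries, but the difference of 0.43 ± 0.24 did not pass the test (limma adjusted p = 0.143) and its 95% interval ran from −0.08 to 0.94. None of 24 alternatives brought it past the threshold (adjusted p 0.0699 to 0.341).

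Fst, which encodes follistatin, had a different pattern: it was low in the Sox2-guide libraries. It stood at 273, 311, 395 and 378 normalised reads in the WT-labelled libraries and at 478, 419.9, 372 and 333 in the knockout-labelled libraries. These ranges overlap. In the Sox2-guide libraries it stood at 21.1, 22.3, 18.7 and 32.1, far under every other library. The Sox2-guide values rest on 39 reads in all, against 417 in the WT-labelled and 601 in the knockout-labelled libraries. The WT-labelled and knockout-labelled means of 339 ± 57.3 and 401 ± 62.3 (SD, n = 4) differed by 0.24 ± 0.19 on the log2 scale (limma adjusted p = 0.263; 95% interval −0.15 to 0.64), and the exact permutation test gave p = 0.20. The Sox2-guide mean of 23.6 ± 5.88 was 17.0-fold lower than the knockout-labelled mean (−4.05 ± 0.19, limma adjusted p = 2.1e-11) and 14.4-fold lower than the WT-labelled mean (−3.80 ± 0.19, limma adjusted p = 8.2e-11). Gm47040 overlaps Fst on the other strand.

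Chrd, or chordin, an antagonist first known from the embryonic organiser, was counted at 13.0, 25.3, 8.98 and 13.1 normalised reads in the WT-labelled libraries. The other libraries held at most 4.45, and knockout-labelled replicate 4 and Sox2-guide replicates 1 and 4 held none. These values rest on 18, 4 and 3 reads in the 3 groups, so depth limits them. The WT-labelled libraries held 5.38 times the depth-scaled reads of the knockout-labelled libraries (95% counting interval 1.77 to 21.9) and 8.05 times those of the Sox2-guide libraries (2.35 to 42.7). The exact permutation test gave p = 0.0286 for both, the smallest p that 70 assignments of 8 libraries allow. Thpo overlaps Chrd on the other strand and reached at most 7.69 normalised reads.

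Fstl1 had its group means in the same order as Fst, the gene it is named after. Its rise from WT-labelled to knockout-labelled libraries passed the test, which that of Fst did not. Its protein binds BMP4 in mouse lung and TGF-beta family ligands elsewhere. It stood at 2607, 2871, 2993 and 2599 normalised reads in the WT-labelled libraries, at 10139, 9089, 9617 and 9759.6 in the knockout-labelled libraries, and at 1901, 1738, 1619 and 1600.4 in the Sox2-guide libraries. The 3 groups were well separated, with the knockout-labelled libraries highest and the Sox2-guide libraries lowest. Fstl1 rose 3.49-fold between the WT-labelled and knockout-labelled libraries (means 2767 ± 196 and 9651 ± 435, SD, n = 4; log2 change 1.80 ± 0.08, limma adjusted p = 6.0e-12). In the Sox2-guide libraries it was 5.63-fold lower than in the knockout-labelled libraries (mean 1715 ± 139; −2.49 ± 0.08, limma adjusted p = 2.0e-13) and 1.61-fold lower than in the WT-labelled libraries (−0.69 ± 0.08, limma adjusted p = 1.8e-06). By rank of the group mean it was at place 63 in the knockout-labelled libraries, close to Grem1, and at 609 and 1148 in the WT-labelled and Sox2-guide libraries.

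Bambi resembles a type I receptor without a kinase domain and is itself a known target of BMP and TGF-beta signalling. It stood at 71.4, 57.8, 74.8 and 49.3 normalised reads in the WT-labelled libraries, at 34.6, 37.9, 43.8 and 9.71 in the knockout-labelled libraries, and at 7.69, 6.68, 0 and 4.94 in the Sox2-guide libraries. The groups did not overlap, but knockout-labelled replicate 4 was far under its group and Sox2-guide replicate 3 had no read. Totals of reads were 78, 47 and 9. The drop between the WT-labelled and knockout-labelled libraries, from 63.3 ± 11.9 to 31.5 ± 15.0 (SD, n = 4), did not pass the test (log2 change −1.15 ± 0.60, limma adjusted p = 0.101). It passed in 6 of 23 alternatives, over which its adjusted p ran from 0.00643 to 0.319, and without knockout-labelled replicate 4 it was −0.68 (adjusted p = 0.319). The Sox2-guide mean of 4.83 ± 3.41 was 6.53-fold lower than the knockout-labelled mean (−2.68 ± 0.60, limma adjusted p = 0.00107) and 13.1-fold lower than the WT-labelled mean (−3.83 ± 0.60, limma adjusted p = 5.5e-05). Without Sox2-guide replicate 3 these changes were −1.96 (adjusted p = 0.00134) and −3.11 (adjusted p = 3.4e-05).

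Most of the tested genes of the whole table passed in each comparison, and the counts of ligand and antagonist genes stand beside that background. Between the WT-labelled and knockout-labelled libraries 5 of the 7 tested genes passed, 3 higher and 2 lower. Of all 12676 tested genes 67.0% passed, 37.6% higher and 29.4% lower. The groups did not overlap for 6 of the 7, against 66.0% of all tested genes. Between the knockout-labelled and Sox2-guide libraries all 7 tested genes passed, 2 higher and 5 lower. Of all tested genes 60.7% passed, 30.5% higher and 30.2% lower. None of the 7 overlapped, against 53.6% of all tested genes without overlap. Between the WT-labelled and Sox2-guide libraries 6 of 7 passed, 2 higher and 4 lower. Of all tested genes 52.0% passed, 30.1% higher and 22.0% lower. Again none of the 7 overlapped, against 46.6% of all tested genes without overlap. The median log2 changes of the 7 genes were 0.24, −1.92 and −0.69, beside 0.12, −0.01 and 0.08 over all tested genes. These comparisons share libraries and are not independent of each other. The exact two-sided permutation p was 0.0286, the smallest possible, for each of the 8 genes in each comparison, except Fst between the WT-labelled and knockout-labelled libraries and Chrd between the knockout-labelled and Sox2-guide libraries (p = 0.914). Without Sox2-guide replicate 1 the numbers of the 7 genes that passed in each direction were as given above. Of all tested genes 8982, 7816 and 6722 then passed in the 3 comparisons, against 8493, 7689 and 6596 with it. Quantile scaling moved the median of all genes by −0.17 between the WT-labelled and knockout-labelled libraries, and DESeq2 size factors moved it by −0.11 between the WT-labelled and Sox2-guide libraries; all 7 genes kept their direction under both.

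**Figure D2:**
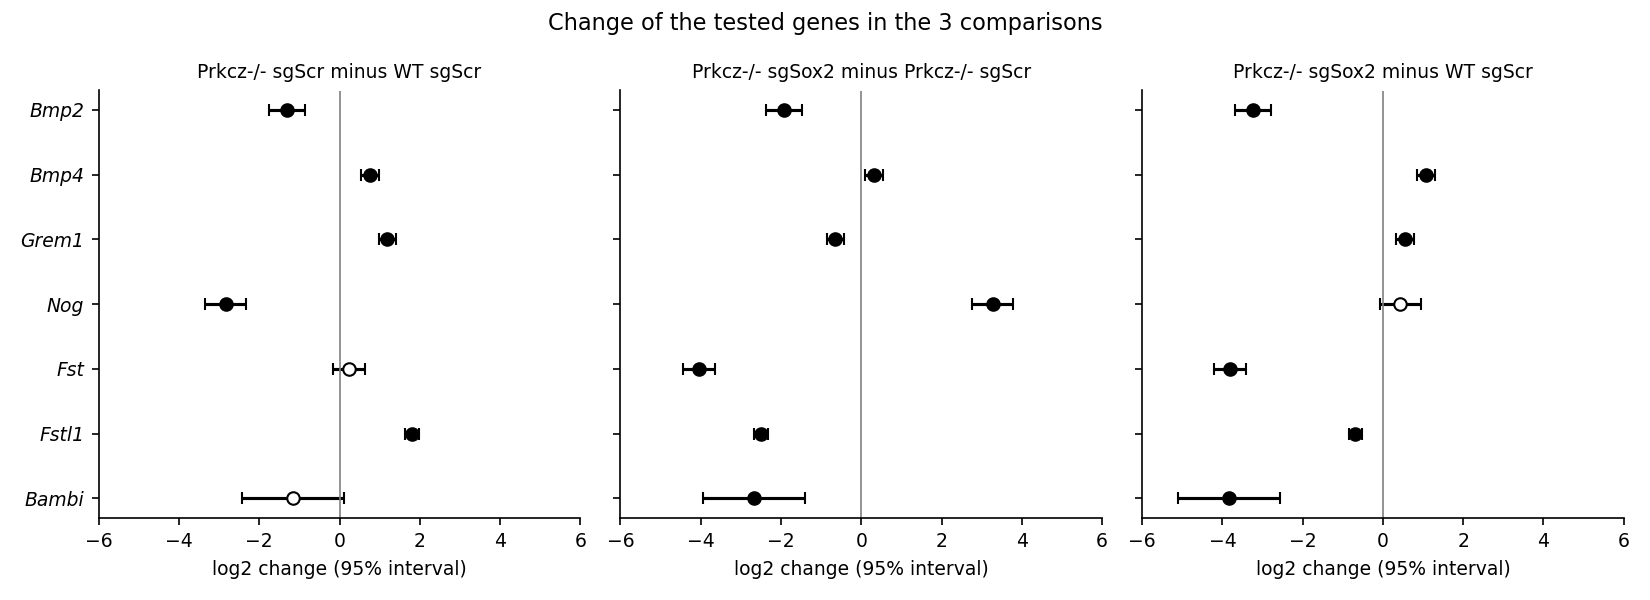
Log2 change with its 95% interval from the limma fit of all 12 libraries for the 7 tested genes, 1 panel per comparison. Filled points passed an adjusted p of 0.05 and open points did not. Nog crosses from −2.84 to 3.27 between the left and middle panels, and Bambi has the widest intervals of the 7 genes.

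Summed over genes, the ligand reads stayed within a narrow range while their makeup and the antagonist reads moved. Bmp2 and Bmp4 together gave 657 ± 16.4 normalised reads (SD, n = 4) in WT-labelled libraries, 611 ± 21.4 in knockout-labelled libraries and 607 ± 41.2 in Sox2-guide libraries. The Sox2-guide range, 575 to 663, overlapped both the WT-labelled range of 643 to 679 and the knockout-labelled range of 581 to 629.8. The WT-labelled and knockout-labelled ranges did not overlap each other, and every knockout-labelled sum was under every WT-labelled sum. Bmp4 supplied 40.5% ± 2.41 of these reads in WT-labelled libraries, 74.1% ± 4.36 in knockout-labelled libraries and 92.9% ± 2.67 in Sox2-guide libraries. The 4 antagonists together gave 5263 ± 257, 11402 ± 645 and 7272 ± 1166 normalised reads. There were 8.01 ± 0.29 antagonist reads per ligand read in the WT-labelled libraries, 18.7 ± 1.49 in the knockout-labelled libraries and 12.1 ± 2.52 in the Sox2-guide libraries. Sox2-guide replicate 1 was at 8.51, next to the WT-labelled range of 7.60 to 8.26, and the other Sox2-guide libraries were at 12.6 to 14.4. Grem1 made up 91.2%, 96.3% and 97.7% of the antagonist reads, so this ratio follows Grem1 and says little of Nog or Fst. The share of Fst was 6.44%, 3.50% and 0.325% in the 3 groups, and that of Nog 2.02%, 0.124% and 1.99%. Tags measure RNA and not protein, and may include duplicates of 1 molecule. The sums weigh each gene alike whatever its affinity for a ligand.

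**Figure D3:**
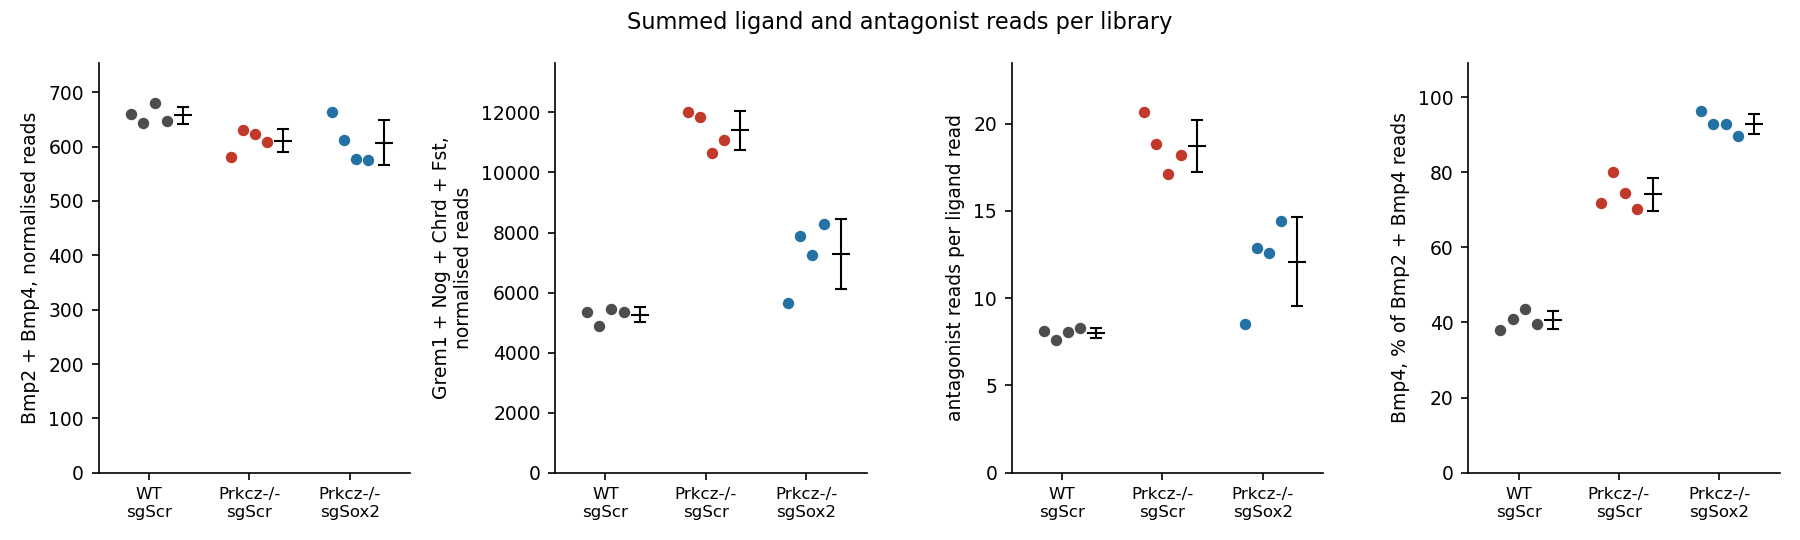
Sums per library: ligand reads (Bmp2 and Bmp4), antagonist reads (Grem1, Nog, Chrd and Fst), antagonist reads per ligand read, and the percent of ligand reads from Bmp4. Points are libraries, bars the mean and SD of 4, and all axes start at 0. Ligand sums lie between 575 and 679 in all 12 libraries, while the Bmp4 share runs from 37.9% to 96.2%.

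Replicate spread was above counting error for the most abundant genes and on either side of it for the others. For Grem1 the coefficient of variation among replicates was 4.99%, 5.38% and 16.4% in WT-labelled, knockout-labelled and Sox2-guide libraries, where counting error alone would give 2.61%, 1.57% and 1.86%. For Fstl1 it was 7.09%, 4.51% and 8.08% against 3.44%, 1.68% and 3.75%. Nog in the Sox2-guide libraries varied by 3.53%, less than its counting error of 13.1%, and Bmp2 in the WT-labelled libraries by 3.40% against 9.15%. Fst varied by 16.9% and 15.5% in the WT-labelled and knockout-labelled libraries against 9.79% and 8.16%, and Bambi in the knockout-labelled libraries by 47.7% against 29.2%. With 4 libraries such a spread is itself poorly known.

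The genes with the most similar profiles were found by the root mean square difference of log2 values over the 12 libraries, each profile centred on its own mean, among 11202 genes. Fstl1 was nearest to Csrp2, a LIM domain protein gene, at 0.13, and to Id3, a BMP target gene, also at 0.13. Id3 averaged 1571 ± 30.9, 6460.02 ± 688 and 1075 ± 152 normalised reads in the 3 groups (SD, n = 4). Grem1 was nearest to Mras and Spg20, both at 0.12, and Bmp4 to Lamp2 at 0.104 and Tomm34 at 0.1056. These distances were under the replicate spreads of Grem1 and Bmp4 themselves, 0.137 and 0.1061. Nog was nearest to Hmgb3 and to Apln, the gene of the peptide apelin, both at 0.31. Fst was nearest to Mageh1 at 0.33 and Clmp at 0.35, and Bmp2 to Nova1 and Nrn1, both at 0.43. For Bambi the nearest genes, Map1a and Slco2a1, were at 0.75, a distance under its own replicate spread of 0.88. None of these genes was a nearest gene of more than 1 member.

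Other extracellular BMP modulators, secreted or anchored in the membrane, gave a mixed picture between the WT-labelled and knockout-labelled libraries. Of 20 listed genes 12 were tested, of which 6 rose and 3 fell from the former to the latter, with a median log2 change of 0.35. That was 75% of the 12, beside 67.0% of all tested genes that passed in this comparison. Nbl1, a DAN family antagonist and relative of gremlin, rose from 158 ± 18.3 to 1129 ± 78.4 normalised reads (2.83 ± 0.13, limma adjusted p = 1.1e-11) and stood at 158 ± 24.2 in the Sox2-guide libraries. Chrdl1, a chordin-like antagonist, rose from 7.54 ± 3.56 to 139.8 ± 9.84 (4.16 ± 0.46, limma adjusted p = 5.3e-07) and was at 12.9 ± 9.65 in the Sox2-guide libraries. Bmper, which encodes a chordin-like BMP-binding protein, fell from 237 ± 50.7 to 12.9 ± 5.18 (−4.15 ± 0.26, limma adjusted p = 6.8e-10) and was at 173 ± 40.8 in the Sox2-guide libraries. Rgma, a membrane-anchored BMP co-receptor, averaged 462 ± 50.4, 337 ± 44.0 and 289 ± 32.6, lower in both of the latter groups than in the WT-labelled libraries (limma adjusted p = 0.0043 and 2.9e-04). Twsg1, a secreted protein that binds BMPs and chordin, averaged 553 ± 26.7, 594 ± 74.2 and 381 ± 45.2 and was lower in the Sox2-guide libraries than in the WT-labelled libraries (limma adjusted p = 6.8e-04). So Bmper, like Nog, was low in the knockout-labelled group of these libraries, and Nbl1, Chrdl1 and Fstl1 were high in it. From knockout-labelled to Sox2-guide libraries 2 of the 12 were higher and 6 lower (median −0.36). From WT-labelled to Sox2-guide libraries 2 were higher and 5 lower (median −0.13). The shares that passed were 66.7% and 58.3%, beside 60.7% and 52.0% of all tested genes. Among 12 other BMP family ligands, 7 had a row and only Bmp3 was tested; it averaged 24.1 ± 7.70, 7.47 ± 4.79 and 22.9 ± 9.27.

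On the receiving side, 7 of 9 receptor genes were tested. Between the WT-labelled and knockout-labelled libraries 2 were higher and 4 lower, with a median of −0.69. Bmpr2, the main type II receptor, was at 1115 ± 23.9, 1889.8 ± 145 and 734 ± 29.1 normalised reads, higher in the knockout-labelled than in the WT-labelled libraries (limma adjusted p = 1.9e-07) and lower in the Sox2-guide libraries than in either (limma adjusted p = 2.0e-10 and 5.6e-06). Acvr2a, a type II receptor for activins and BMPs, averaged 129 ± 26.7, 225 ± 19.1 and 163 ± 35.1 and rose between the WT-labelled and knockout-labelled libraries (limma adjusted p = 8.1e-04); its fall from there to the Sox2-guide libraries (limma adjusted p = 0.030) was lost without knockout-labelled replicates 1, 2 or 3 or Sox2-guide replicate 4 (adjusted p = 0.0826, 0.0504, 0.0544 and 0.116). Tgfbr3, the co-receptor betaglycan, averaged 553 ± 67.8, 160 ± 33.2 and 282 ± 84.5, lower in the knockout-labelled than in the WT-labelled libraries (limma adjusted p = 4.6e-07) and higher again in the Sox2-guide libraries (limma adjusted p = 0.0023). One of the 4 lower genes, the type I receptor gene Bmpr1b, passed narrowly (limma adjusted p = 0.048) and was lost in 10 of the alternatives. Eng, the co-receptor endoglin, fell from 59.1 ± 14.6 to 16.6 ± 2.66 (limma adjusted p = 2.8e-06) and was at 386 ± 77.2 in the Sox2-guide libraries, above both other groups (limma adjusted p = 5.1e-11 and 4.4e-08). From knockout-labelled to Sox2-guide libraries 2 receptor genes were higher and 4 lower (median −0.26). From WT-labelled to Sox2-guide libraries 1 was higher and 5 lower (median −0.60). In each of the 3 comparisons 85.7% of the 7 passed, beside 67.0%, 60.7% and 52.0% of all tested genes.

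Inside the cell, 12 of 12 SMAD genes and regulators were tested. The inhibitory SMADs, which BMP signalling induces as feedback, were among the 5 that were higher in the knockout-labelled than in the WT-labelled libraries, while 1 was lower and the median was 0.01. Smad6 averaged 12.6 ± 6.75, 430.4 ± 55.7 and 16.5 ± 3.68 normalised reads in the 3 groups (5.20 ± 0.40 between the WT-labelled and knockout-labelled libraries, limma adjusted p = 6.2e-09). Smad7 averaged 241 ± 42.8, 635 ± 100.3 and 199.7 ± 38.2 (1.40 ± 0.17, limma adjusted p = 1.3e-06). Ski, a co-repressor that binds SMADs, averaged 729 ± 50.9, 1784 ± 116 and 843 ± 142, higher in the knockout-labelled than in the WT-labelled and Sox2-guide libraries (limma adjusted p = 1.5e-08 and 1.6e-07). Smad5, a BMP-activated SMAD, averaged 1217 ± 41.8, 1750.1 ± 83.1 and 1645 ± 178 and was above the WT-labelled libraries in both other groups (limma adjusted p = 3.1e-05 and 3.6e-04). Smurf1, a ubiquitin ligase for BMP SMADs, averaged 387 ± 31.7, 330.1 ± 48.4 and 544 ± 82.4, highest in the Sox2-guide libraries (limma adjusted p = 1.4e-04 against the knockout-labelled and 0.0051 against the WT-labelled libraries). Its lower mean in the knockout-labelled than in the WT-labelled libraries did not pass (limma adjusted p = 0.113) outside 6 of the alternatives. The 1 lower gene, Smad1, went from 819 ± 42.6 to 674 ± 36.1 and was lost without WT-labelled replicate 1 (adjusted p = 0.0553). In the Sox2-guide libraries 1 gene was higher and 7 lower than in the knockout-labelled libraries (median −0.43). Against the WT-labelled libraries 2 were higher and 5 lower (median −0.10). Of the 12 genes 50%, 66.7% and 58.3% passed in the 3 comparisons, beside 67.0%, 60.7% and 52.0% of all tested genes.

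The BMP target genes were higher in the knockout-labelled libraries than in both other groups for most genes listed. Of 11 tested genes out of 13, 9 were higher and 1 lower than in the WT-labelled libraries, with a median of 1.47. From there to the Sox2-guide libraries 9 of the 11 were lower (median −2.18), while Msx1 had a higher mean, 132 ± 29.0 against 91.2 ± 32.1, and did not pass (limma adjusted p = 0.071) outside 4 of the alternatives. Id1, Id2 and Id3 encode inhibitors of basic helix-loop-helix factors and are direct SMAD targets. Id1 averaged 425 ± 58.5, 650.1 ± 52.3 and 145 ± 17.2 normalised reads in the 3 groups. Id2 averaged 1514 ± 26.3, 4185 ± 192 and 726 ± 83.0. The Sox2-guide libraries were under the WT-labelled libraries for all 3 Id genes (log2 changes −1.54, −1.07 and −0.56, limma adjusted p = 4.0e-08, 2.4e-08 and 1.9e-04). Atoh8 averaged 23.5 ± 12.1, 257 ± 36.1 and 48.5 ± 15.6. Gata2 was the 1 target that was lower in the knockout-labelled than in the WT-labelled libraries by the test, at 488 ± 44.8, 175 ± 44.7 and 122 ± 16.5; its further fall in the Sox2-guide libraries was lost in 3 alternatives. From WT-labelled to Sox2-guide libraries 2 targets were higher and 6 lower (median −0.52). Of the 11 targets 90.9%, 81.8% and 72.7% passed in the 3 comparisons, beside 67.0%, 60.7% and 52.0% of all tested genes. The target genes respond to other signals as well, and the smooth muscle marker sum, most of it Acta2, was also highest in the knockout-labelled libraries.

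Of 6 proteases that mature BMPs or cleave chordin, 4 were tested, and 3 were higher and 1 lower in the knockout-labelled than in the WT-labelled libraries (median 0.86). Furin, a convertase that matures BMP precursors, averaged 558 ± 39.7, 1197 ± 166 and 927 ± 224 normalised reads. Pcsk6, a related convertase, averaged 8.85 ± 5.39, 316 ± 42.3 and 1.17 ± 1.36, and was higher in the knockout-labelled libraries than in the WT-labelled (limma adjusted p = 9.9e-08) and Sox2-guide libraries (limma adjusted p = 1.6e-09). Tll1, a tolloid protease that cleaves chordin, averaged 54.4 ± 14.8, 2.35 ± 4.69 and 8.75 ± 5.83. From knockout-labelled to Sox2-guide libraries 1 protease gene was higher and 2 lower (median −0.34); the rise of Tll1 and the fall of Furin there were lost in 2 and 5 alternatives. From WT-labelled to Sox2-guide libraries 1 was higher and 2 lower (median −0.97). Of the 4 protease genes 100%, 75% and 75% passed in the 3 comparisons, beside 67.0%, 60.7% and 52.0% of all tested genes.

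**Figure D4:**
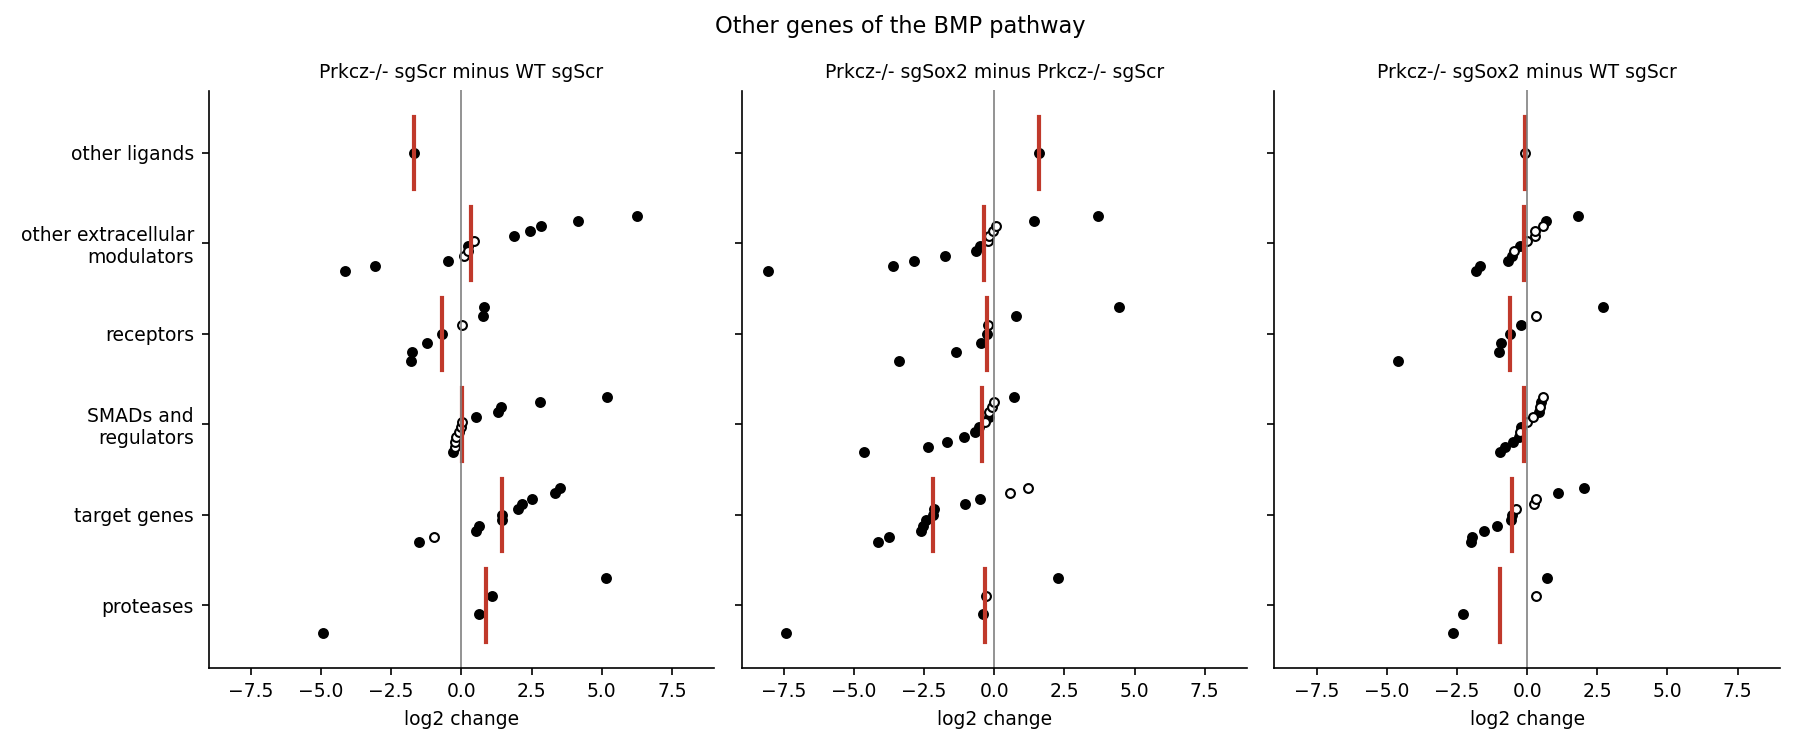
Log2 change of the tested genes of 6 other lists of the BMP pathway, 1 panel per comparison. Filled points passed an adjusted p of 0.05 in the limma fit, open points did not, and the red bar is the median of the list. The median of the 11 target genes is at 1.47 in the left panel and at −2.18 in the middle panel.

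In the intestine, ligands and antagonists are made by different stromal cells: telocytes under the epithelium are rich in BMP ligands, and trophocytes below the crypts in Grem1. Of 8 telocyte markers 4 were tested, and of 6 trophocyte markers 4. From WT-labelled to knockout-labelled libraries 3 of the tested telocyte markers were higher and 1 lower. From there to the Sox2-guide libraries 1 was higher and 3 lower. Bmp3, whose means are given above, went against the others both times (limma adjusted p = 0.0032 and 0.0055). Of all tested genes 67.0% and 60.7% passed in these comparisons. The summed telocyte markers lay at 827 to 1039 normalised reads in WT-labelled, 2229.6 to 3273 in knockout-labelled and 832 to 1021 in Sox2-guide libraries, with Foxl1, which defines telocytes, at a mean of at most 11.2 in any group. Pdgfra, also on the fibroblast list, averaged 249 ± 32.6, 1448 ± 281 and 40.9 ± 5.94, and Wnt5a 566 ± 47.7, 877 ± 73.2 and 640.1 ± 18.6; both were higher in the knockout-labelled than in the WT-labelled libraries (limma adjusted p = 5.8e-10 and 1.1e-05) and lower again in the Sox2-guide libraries (limma adjusted p = 1.8e-13 and 4.2e-04). The summed trophocyte markers lay at 7168 to 7543, 3756 to 4148 and 3923 to 5056; this sum is the net of members that moved in opposite directions. Cd34 averaged 4599 ± 208, 767 ± 92.8 and 2669.6 ± 275, whereas Cd81 averaged 1410 ± 87.0, 3124 ± 109 and 1662 ± 249 and rose between the WT-labelled and knockout-labelled libraries (1.15 ± 0.09, limma adjusted p = 1.2e-08). Ackr4 had 1 read in the WT-labelled libraries and 0 in the others. Markers of other cells were low, or moved with the groups. Epithelial markers summed to at most 62.4 normalised reads in any library, endothelial to at most 114, and immune to at most 74.4. Mesothelial markers summed to 1136 to 1296, 10.2 to 16.2 and 296 to 498, with Upk3b and Lrrn4 at 0 in the WT-labelled libraries. Most of the WT-labelled and Sox2-guide sums was Msln, which had 1 read in the knockout-labelled libraries. Krt19 averaged 102, 4.60 and 12.5 in the 3 groups. Pericyte markers summed to 97.4 to 165, 277 to 309.8 and 37.8 to 61.5 in the 3 groups; Rgs5 averaged 0, 60.5 and 0.481, and Cspg4 89.6, 0 and 0. Markers of enteric glia and neurons summed to 250.01 to 361, 628 to 787 and 452 to 504, most of it Tubb3. Markers of interstitial cells of Cajal summed to 138 to 215, 58.2 to 81.6 and 28.9 to 49.4, with Kit at 0 in all libraries. The part of these markers in the values of the ligands and antagonists was not tested.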

How the data were processed

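Total RNA of 12 cultures of mouse colon fibroblasts was read as QuantSeq 3′ tags in single reads of 75 bases, per the labels' protocols. The authors deposited a table of signal values, reads per gene scaled to 10000000 per library, for 23106 genes; 23002 gene IDs were matched to symbols in GENCODE or the gene name tables and 104 were not. The submitters' processing notes name GRCm38 as the genome. Not given in the sources used here were the aligner, counter, annotation, strand setting and any use of the optional molecular identifiers. If duplicates were counted, reads are not independent molecules, and all counting intervals cover counting error only. Without a stated strand setting, reads of a gene and of an overlapping antisense gene cannot be told apart.

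Every value was a whole multiple of 1 read's worth (100% of values within 0.01 read), so reads and depth were recovered: 2668455 to 5201368 reads per library. Genes averaging at least 10 normalised reads (12676) were tested with limma 3.58.1 with an intensity trend in R 4.3.3, on log2(value + 1), in 1 fit of all 12 libraries without covariates. P-values were adjusted by Benjamini-Hochberg over all tested genes, and a gene was called at an adjusted p under 0.05. Changes on this scale understate those of low genes. On recovered reads edgeR 4.0.16 (quasi-likelihood) called 8550, 8055 and 6647 genes in the 3 comparisons, and DESeq2 1.42.0 was also run. The limma steps were tested on simulated data. Single genes were also compared by an exact two-sided permutation test over the 70 assignments of 8 libraries.

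The members and lists were chosen with earlier results of these data known. The text names all members and the 2 nearest profiles of each. From each pathway list it names up to 2 genes per direction and comparison, those with the smallest adjusted p. Chrdl1, Smad7 and Smoc2 were added after their values were seen. So were the marker genes Myh11, Lum, Msln, Upk3b, Lrrn4, Foxl1, Ackr4, Col1a1, Acta2, Cnn1, Actg2, Rgs5, Cspg4, Tubb3, Kit, Tagln, Lmod1, Thy1 and Krt19. All genes this rule gives are named in the text except 1, which is not reported here. Lists of fibroblast, smooth muscle, epithelial, endothelial, immune, mesothelial, enteric glia and neuron, interstitial cell of Cajal, pericyte, telocyte and trophocyte markers were summed per library. Promoter sequences were taken from RefSeq (GRCm38.p6). Alternatives were other scalings, pseudocounts of 0.5 and 5, no filter and a filter of 50, both count tools, fits of 2 groups, a replicate block, a total without mitochondrial genes and Gm42418, and leaving out each library.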

Additional observations from a re-analysis of the deposited data

Results flagged for a closer look

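Among 147 sets of 4 replicate values examined, 13 held 1 library far from the other 3 by Dixon's test, and chance flags about 1 set in 20. None of these was the level of a ligand, an antagonist, Fstl1 or Bambi. The 1 set that involves a member was the share of antagonist reads from Grem1, which was 97.0% in Sox2-guide replicate 1 and 97.8% to 97.9% in the other Sox2-guide libraries. In that same library Bmper stood at 235 normalised reads against 151 to 157, and the trophocyte marker Cd81 at 2034 against 1518 to 1551. Sox2-guide replicate 2 held 84.6 reads of Rgmb against 26.2 to 29.6 and 376 of Lemd3 against 221 to 245. Sox2-guide replicate 3 held 3.75 of Rspo3, a value of 1 read, against 0. Knockout-labelled replicate 1 had Smad1 at 728 against 653 to 660.1. Knockout-labelled replicate 3 had Bmpr2 at 2106 against 1802 to 1825, and held the group's only Tll1 value, 9.39 against 0. Knockout-labelled replicate 4 had Atoh8 at 311 against 232 to 244 and F3 at 301 against 580.3 to 617. WT-labelled replicate 3 had Eng at 80.8 against 49.3 to 54.2 and Dcn at 1514 against 1321 to 1336. The causes were not tested.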

How the results depend on the processing

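Of 501 values of the 7 tested genes under alternatives, 494 kept their direction and their side of the threshold, and none reversed. The fall of Bambi between the WT-labelled and knockout-labelled libraries passed under quantile scaling (-1.69), a pseudocount of 5 (-1.02), edgeR (-1.04), DESeq2 (-1.09) and a fit of those groups alone (-1.15); leaving out single libraries gave -1.37 to -0.68. The rise of Bmp4 from knockout-labelled to Sox2-guide libraries ran from 0.26 to 0.37 when single libraries were left out. Counts of genes called stayed within 1.5 times: 7138 to 9469, 6464 to 8394 and 5787 to 6793 in the 3 comparisons. Between the WT-labelled and Sox2-guide libraries 57.8% of calls were higher, against 47.8% with DESeq2. Nbl1 and Bmp3 between the WT-labelled and Sox2-guide libraries ran from -0.088 to 0.075 and from -0.31 to 0.072 when single libraries were left out. Neither change passed in any alternative. A total without mitochondrial genes and Gm42418 gave ligand sums of 773, 713 and 684 and antagonist sums of 6188 and 13304.6 in the WT-labelled and knockout-labelled libraries. It scales the genes of a library alike, and the antagonist reads per ligand read stayed at 8.01, 18.7 and 12.1. Adding Fstl1 and Bambi, which can only raise a sum, gave antagonist sums of 8094, 21085 and 8992, or 12.3, 34.6 and 14.9 per ligand read. The causes of the changes in single genes were not tested. Replicate numbers showed no clear pairing of the samples (1 of 12 same-number correlations was over 0.1). With 4 libraries per group, such correlations cannot exclude a shared animal or day. With the replicate block 8508, 7693 and 6627 genes were called, and no call of the 7 genes changed. Depth limits Chrd and Bambi, at 0 to 25 reads per library, Nog in the knockout-labelled libraries and Fst in the Sox2-guide libraries. Among other named genes, it limits Bmp3 at 30, 12 and 36 reads in the 3 groups. Tll1 had 67, 3 and 14 reads, and Pcsk6 had 11, 467 and 2.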

Other observations

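Several secreted or membrane proteins that act around BMPs had large differences that were not described above. Smoc2, which encodes a secreted calcium-binding matrix protein and was picked after its values were seen, averaged 8.47 ± 7.57 normalised reads (SD, n = 4) in WT-labelled libraries, 476 ± 90.4 in the knockout-labelled libraries and 1.04 ± 1.20 in the Sox2-guide libraries. It was higher in the knockout-labelled libraries than in the WT-labelled (log2 change 6.25 ± 0.70, limma adjusted p = 6.6e-07) and fell from there to the Sox2-guide libraries (-8.07 ± 0.70, limma adjusted p = 4.4e-08); the WT-labelled and Sox2-guide values rest on 10 and 2 reads. Htra1, a secreted serine protease that binds TGF-beta family members, averaged 488 ± 74.3, 2651 ± 190.3 and 782 ± 99.2, and each pair of groups differed by the test (limma adjusted p = 2.0e-11, 1.8e-09 and 1.4e-04). Rgmb, a BMP co-receptor also known as Dragon, averaged 124 ± 39.7, 13.5 ± 3.35 and 41.8 ± 28.5. The log2 change of Rgmb from WT-labelled to knockout-labelled libraries was -3.07 ± 0.38 (limma adjusted p = 1.9e-06), and in the Sox2-guide libraries it was 1.40 ± 0.38 above the knockout-labelled libraries (limma adjusted p = 0.0040). Smoc2 and Htra1 had their highest values in the same libraries as Grem1 and Fstl1, and Rgmb its lowest values in the same libraries as Nog.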
